A study of Mus musculus with 8 samples.

Results

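The interferon-inducible PARP family was followed in monocytes and macrophages sorted from irradiated and sham-treated pancreatic tumours. It was taken as 6 genes: Parp9, Parp10, Parp11, Parp12, Parp14 and Dtx3l. A gene counted as measured where an array row was annotated to it alone, and the brightest such row was kept. On this basis 4 of the 6 were measured, Parp9, Parp11, Parp12 and Parp14, out of 22180 genes in all. The rows for Parp10 and Dtx3l were each annotated to a second gene as well and are given separately.

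PARP enzymes transfer ADP-ribose from NAD onto proteins or nucleic acids. Most interferon-inducible members add a single ADP-ribose unit or, like PARP9, bind ADP-ribose through macrodomains. Type I interferon switches such genes on through a transcription factor complex that includes STAT2 and IRF9. In macrophages PARP9 and PARP14 are known as regulators of interferon responses, and DTX3L is the ubiquitin ligase that binds PARP9.

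Each of 8 Affymetrix arrays held RNA from the cells of 1 mouse, sorted as CD45+ CD11b+ Ly6Chi. The irradiated group was 4 mice whose tumours received 20 Gy, and the sham group was 4 mice given a sham treatment; tumours of both were harvested 1 day later. All mice were female C57BL/6, aged 8 weeks, and carried under the skin the tumour cell line 152, which had grown for 14 days. That single line came from a spontaneous tumour of a KPC mouse, with the alleles KrasLSL-G12D/+ and Trp53LSL-R172H/+ and with Pdx1-Cre, whose promoter is active in the pancreas; the sorted cells are from the C57BL/6 host. Levels are log2 values normalized by the authors. The array medians lay between 4.68 and 4.73.

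The sort's markers were present on all arrays: Ptprc, which encodes CD45, averaged 11.62 ± 0.09 in irradiated and 11.66 ± 0.05 in sham mice, and Itgam, which encodes CD11b, 11.12 ± 0.12 and 10.94 ± 0.18 (SD, n = 4 each). Ly6c2, which encodes Ly6C, averaged 11.76 ± 0.71 in irradiated and 11.55 ± 0.42 in sham mice. It ran from 10.77 in irradiated mouse 3 to 12.45 in irradiated mouse 1, and from 11.03 to 11.98 in sham mice. Other cells were carried over unevenly. The mean of 18 measured T and NK cell markers ranged from 5.58 to 6.88 in irradiated mice and from 5.69 to 7.98 in sham mice, where mice 2 and 3 stood apart from the rest at 7.75 and 7.98. In a sorted population fewer cells of a type and less RNA per cell cannot be told apart.

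Promoter windows from RefSeq (build GRCm38.p6), running from 250 bases before to 50 bases after a start site, were given for Parp11, Parp12 and Dtx3l. Parp11 has 2 annotated start sites, and its windows are shown because only 1 of them holds the interferon motifs; the Dtx3l window is shown because the Dtx3l start site lies inside the annotated span of Parp9. Capitals mark the interferon-stimulated response element GAAANNGAAA and the gamma-activated site TTCNNNGAA, both searched on both strands. The windows are chr6:127446590-127446889 (plus strand), chr6:127453377-127453676 (plus strand) and chr16:35938978-35939277 (minus strand).
Parp11 first start site: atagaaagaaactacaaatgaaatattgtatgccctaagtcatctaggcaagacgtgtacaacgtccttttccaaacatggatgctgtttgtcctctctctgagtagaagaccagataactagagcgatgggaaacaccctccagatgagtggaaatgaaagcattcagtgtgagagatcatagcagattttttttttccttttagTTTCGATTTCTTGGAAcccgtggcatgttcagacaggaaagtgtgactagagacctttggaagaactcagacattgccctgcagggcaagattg
Parp11 second start site: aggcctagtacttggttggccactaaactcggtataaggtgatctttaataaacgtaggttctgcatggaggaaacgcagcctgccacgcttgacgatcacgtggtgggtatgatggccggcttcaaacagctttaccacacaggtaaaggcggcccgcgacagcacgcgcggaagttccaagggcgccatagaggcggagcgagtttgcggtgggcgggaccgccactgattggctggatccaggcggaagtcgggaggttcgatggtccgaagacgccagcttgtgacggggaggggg
Dtx3l: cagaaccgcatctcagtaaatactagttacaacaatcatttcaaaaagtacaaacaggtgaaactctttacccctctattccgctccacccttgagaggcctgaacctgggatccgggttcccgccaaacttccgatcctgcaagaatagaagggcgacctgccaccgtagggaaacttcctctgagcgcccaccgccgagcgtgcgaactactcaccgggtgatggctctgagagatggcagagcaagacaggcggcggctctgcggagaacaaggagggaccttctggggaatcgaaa

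In the first Parp11 window the response element reads TTTCGATTTC on the printed strand, beginning 44 bases before the start site, and the gamma-activated site TTCTTGGAA begins 37 bases before it, so that the elements overlap by 3 bases. The second Parp11 window, the Dtx3l window and the Parp12 window (chr6:39118300-39118599, minus strand) hold neither set of letters. Of 32851 mouse promoter windows, 3.44% hold the response element, 8.30% the gamma-activated site and 0.454% both. The response element is in 12 of 29 windows matched to 24 of the type I interferon response genes used below. The array row for Parp11 does not separate its start sites.

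None of the 4 measured PARP genes passed the test between the groups. All 4 had a higher mean in irradiated mice, with differences (irradiated minus sham, log2) of 0.15 for Parp11, 0.25 for Parp9, 0.43 for Parp12 and 0.47 for Parp14. The irradiated mice were split: mice 1 and 2 held the highest and second highest value of all 8 mice for each of the 4 genes, while mice 3 and 4 lay within or below the sham range, except mouse 4 for Parp14. The test was limma fitted over all 22180 genes with Benjamini-Hochberg adjustment; 0 genes (0%) passed at 0.05, the smallest adjusted p being 0.545. Before adjustment, 1347 genes (6.07%) had a p under 0.05, of which 454 (2.05% of all genes) were higher in irradiated mice. Parp14 was 1 of these. Markers of other cells also differed in mean level between the groups, without passing the adjusted threshold: 13 of 14 neutrophil markers (median difference -0.78) and 16 of 18 T and NK cell markers (median -0.77) were lower in irradiated mice, beside a median of -0.03 over all genes.

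Parp9 encodes the macrodomain protein that pairs with the DTX3L ligase. Its level was 8.40, 7.95, 7.60 and 7.69 in irradiated mice 1 to 4 and 7.38, 7.87, 7.61 and 7.79 in sham mice 1 to 4. Mouse 1 of the irradiated group stood 0.53 above the highest sham mouse and mouse 2 only 0.08 above it, and the other irradiated mice lay inside the sham range. The means were 7.91 ± 0.36 in irradiated and 7.66 ± 0.22 in sham mice (SD, n = 4 each), a difference of 0.25 ± 0.18 (SE; 95% interval -0.16 to 0.65; limma adjusted p = 0.861). Without irradiated mouse 1 it was 0.08, and without sham mouse 1 0.15.

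Parp14 encodes the largest of these transferases, with several macrodomains, and is known as a coactivator of STAT6, the transcription factor of interleukin 4 signalling. Its level was 9.89, 9.78, 9.12 and 9.43 in irradiated mice 1 to 4 and 9.02, 9.09, 8.91 and 9.32 in sham mice 1 to 4. The groups overlapped at irradiated mouse 3, which lay below sham mouse 4; the other irradiated mice lay above every sham mouse. The means were 9.55 ± 0.35 in irradiated and 9.08 ± 0.17 in sham mice (SD, n = 4 each). The difference of 0.47 ± 0.17 (SE; 95% interval 0.09 to 0.85) is 1.38-fold and did not pass (limma unadjusted p = 0.0206, adjusted p = 0.819). Permuting the group labels exactly (two-sided) gave p = 0.0571, where the 70 assignments can go no lower than 0.0286. The unadjusted p was above 0.05 without irradiated mouse 1 (0.0626) or mouse 2 (0.0608) or sham mouse 3 (0.0543), and with sham mice 2 and 3 both left out (0.120).

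Parp12 encodes a transferase with zinc fingers that bind RNA and is known to restrict RNA viruses. Its level was 9.28, 9.21, 8.31 and 8.70 in irradiated mice 1 to 4 and 8.40, 8.73, 8.18 and 8.47 in sham mice 1 to 4. Irradiated mice 1 and 2 were close to each other and 0.48 or more above the highest sham mouse, and mice 3 and 4 lay within the sham range. The means were 8.88 ± 0.45 in irradiated and 8.44 ± 0.23 in sham mice (SD, n = 4 each), a difference of 0.43 ± 0.21 (SE; 95% interval -0.04 to 0.90; limma adjusted p = 0.822). It was 0.30 without irradiated mouse 1.

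Parp11 encodes a mono-ADP-ribosyltransferase known to affect the stability of the interferon receptor in human cells. Its level was 7.54, 7.12, 6.15 and 6.16 in irradiated mice 1 to 4 and 6.57, 6.67, 6.42 and 6.70 in sham mice 1 to 4. Irradiated mice 1 and 2 lay above every sham mouse and irradiated mice 3 and 4 below every sham mouse, so the irradiated values bracketed the sham range. The means were 6.74 ± 0.70 in irradiated and 6.59 ± 0.13 in sham mice (SD, n = 4 each), a difference of 0.15 ± 0.29 (SE; 95% interval -0.49 to 0.78; limma adjusted p = 0.948). Without irradiated mouse 1 the difference was -0.12 and without irradiated mouse 2 it was 0.02. It was 0.35 without irradiated mouse 3, 0.34 without irradiated mouse 4 and 0.09 without sham mouse 3.

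**Figure D1:**
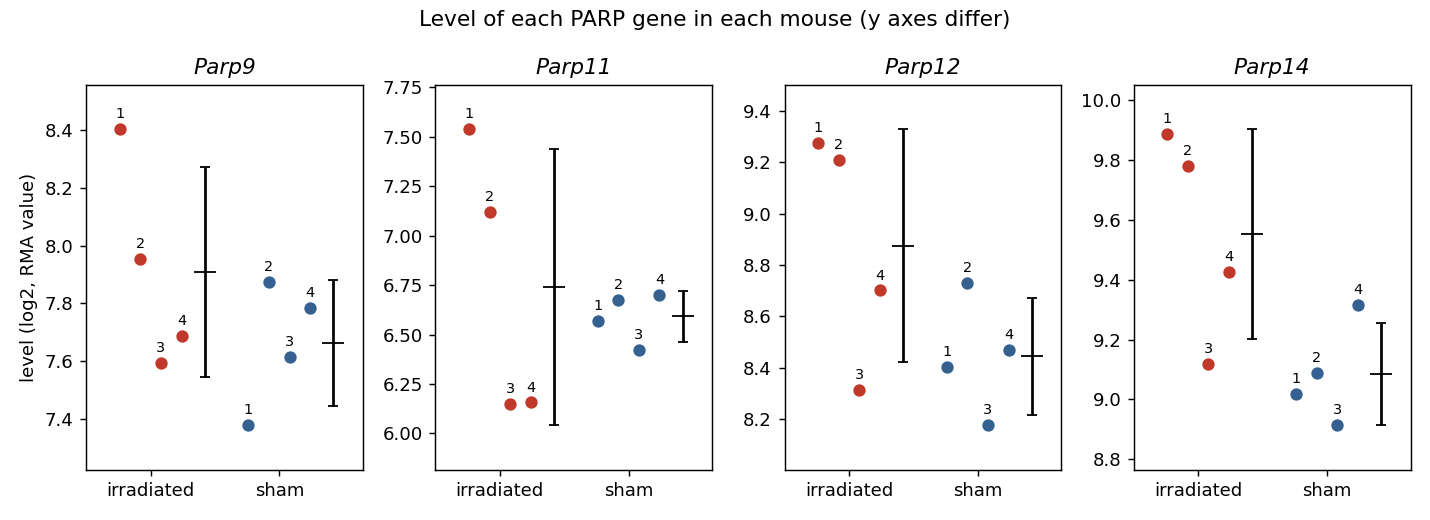
Level (log2, y axis, a different range in each panel) of Parp9, Parp11, Parp12 and Parp14 in each of the 4 irradiated and 4 sham mice; numbers are mouse numbers, and the bars beside each group are its mean and SD. Irradiated mice 1 and 2 are the 2 highest points in every panel, and for Parp11 irradiated mice 3 and 4, at 6.15 and 6.16, lie below all sham mice.

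The irradiated mice varied more than the sham mice in all 4 genes, as in 47.1% of all genes. The same held in 27 of the 29 measured type I interferon response genes described below. For the PARP genes this spread reflects the split of the irradiated mice given above and is no separate result. The SD of the irradiated mice was 1.66 times that of the sham mice for Parp9, 1.99 for Parp12, 2.05 for Parp14 and 5.50 for Parp11, beside a median of 0.955 over all genes. Irradiated mice 1 and 2 held the 2 highest of the 8 values in 692 of all genes (3.12%), an order looked for after the values were seen. The median of the 4 differences was 0.34, and that of all genes was -0.03; 42.2% of all genes were higher in irradiated mice.

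Profiles over the 8 mice, each gene's values minus its own mean, were most alike for Parp12 and Parp14, whose root mean square distance was 0.15 on the log2 scale. They were least alike for Parp11 and Parp14, at 0.30. Parp9 lay 0.21 from Parp12 and 0.19 from Parp14.

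**Figure D2:**
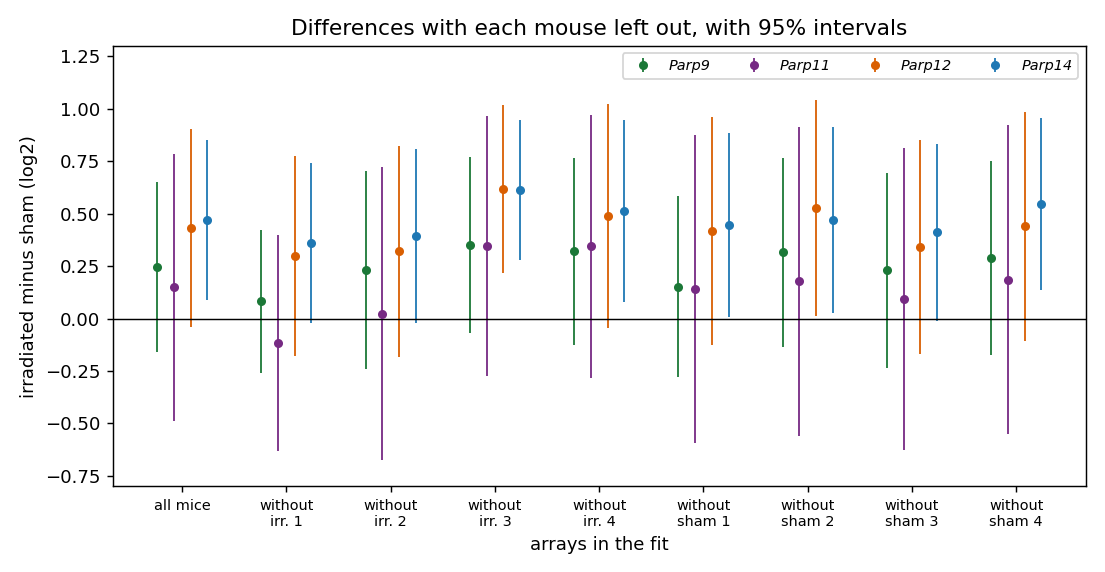
Difference between irradiated and sham mice (log2, y axis) for each gene with all mice and with each mouse left out (x axis); points are limma estimates and lines 95% intervals. The Parp11 estimate turns to -0.12 without irradiated mouse 1, and the 4 estimates are at their highest without irradiated mouse 3.

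The row annotated to both Dtx3l and Parp9 cannot be given to either gene. It stood at 9.07, 8.62, 8.45 and 8.59 in irradiated mice 1 to 4 and 8.38, 8.57, 8.60 and 8.57 in sham mice 1 to 4. Irradiated mouse 1 was again the highest, and irradiated mouse 2 came second, just above sham mouse 3. In a limma fit over all 34365 rows its difference was 0.15 ± 0.14 (SE; 95% interval -0.16 to 0.46; adjusted p = 0.896). The row annotated to both Parp10 and Plec, which encodes the cytoskeletal linker plectin, stood at 7.51, 7.70, 7.12 and 7.38 in irradiated mice 1 to 4 and 7.32, 7.08, 7.13 and 7.47 in sham mice 1 to 4. Here irradiated mouse 2 was the highest and irradiated mouse 1 came second, just above sham mouse 4. The difference was 0.18 ± 0.14 (SE, 95% interval -0.15 to 0.50, limma adjusted p = 0.887).

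Parp14, Dtx3l and Parp9 lie side by side on chromosome 16 in the RefSeq annotation of GRCm38.p6, at 35831892 to 35871518, 35926515 to 35939027 and 35938470 to 35972621. Irradiated mice 1 and 2 were the 2 highest in 0 of the 6 flanking genes, beside 3.12% of all genes. At that share 6 genes are too few to show a contrast with the PARP genes. On the Parp14 side Hspbap1, which encodes a heat shock protein-binding factor, stood at 6.34, 6.30, 6.64 and 6.14 in irradiated mice 1 to 4 and 6.85, 6.67, 6.62 and 6.52 in sham mice 1 to 4. Its difference was -0.31 ± 0.13 (SE; limma adjusted p = 0.819), against 0.47 for its neighbour Parp14. On the Parp9 side Kpna1, which encodes the nuclear import factor importin alpha 5, differed by -0.13 ± 0.13 (SE). The other 4 neighbours, Slc49a4, Sema5b, Wdr5b and Fam162a, differed by -0.11 to 0.06. Parp11 and Parp12 lie apart from each other on chromosome 6, at 127446830 to 127514233 and 39086412 to 39118349.

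**Figure D3:**
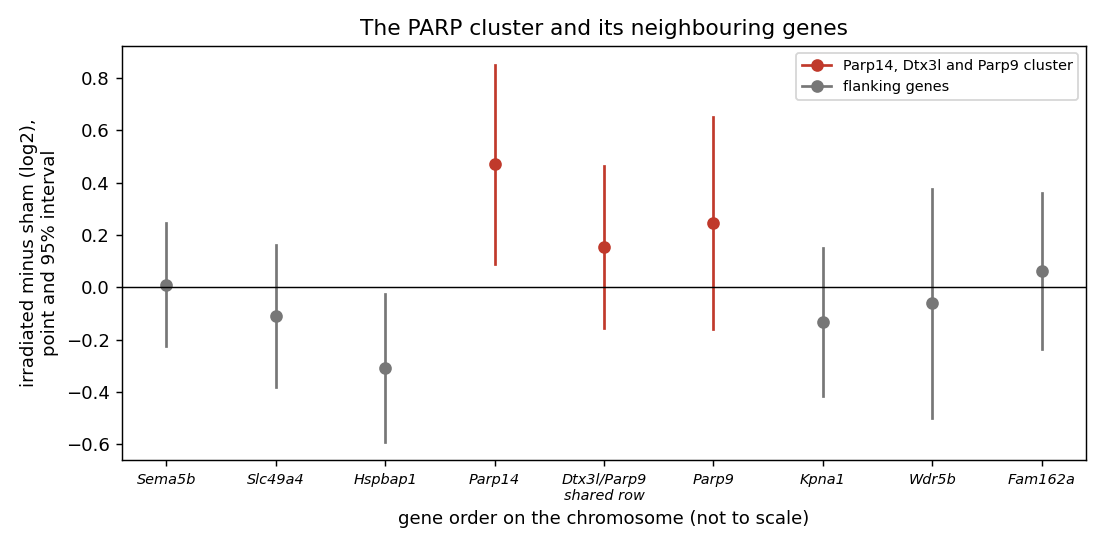
Difference between irradiated and sham mice (log2, y axis; points are limma estimates, lines 95% intervals) for the genes of the Parp14, Dtx3l and Parp9 cluster and the 3 nearest measured protein-coding genes on either side, in gene order (x axis). Parp14 is at 0.47 and its neighbour Hspbap1 at -0.31.

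The 11 other PARP genes include some known for DNA repair, telomere or membrane functions. They also include the antiviral gene Zc3hav1, so they are not a set chosen for lacking induction by interferon. Of the 11, 4 were higher and 7 lower in irradiated mice, with a median difference of -0.04, and 0 passed the adjusted threshold. Parp1, the main DNA damage sensor of the family, stood at 7.67, 7.54, 7.75 and 8.00 in irradiated mice 1 to 4 and 8.15, 8.09, 7.96 and 8.13 in sham mice 1 to 4. The groups overlapped only between irradiated mouse 4 and sham mouse 3. Its difference was -0.34 ± 0.12 (SE, limma unadjusted p = 0.014, adjusted p = 0.819). It was the single gene of the 11 at an unadjusted p under 0.05, which 6.07% of all genes reached. A list of 11 cannot be set apart from all genes by 1 such gene. Parp2, a partner of Parp1 in strand break repair, differed by -0.15 ± 0.10.

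Zc3hav1, which encodes the zinc finger antiviral protein PARP13, differed by 0.11 ± 0.10 (SE). It was the single gene of the 11 in which irradiated mice 1 and 2 were the 2 highest, at 8.92 and 8.69. That order was found in 3.12% of all genes. Tiparp, which encodes PARP7 and is a target of the aryl hydrocarbon receptor, stood at 10.13, 10.90, 11.09 and 10.26 in irradiated mice 1 to 4 and 10.92, 10.12, 9.76 and 10.89 in sham mice 1 to 4, a different order from that of the 4 interferon-inducible genes.

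**Figure D4:**
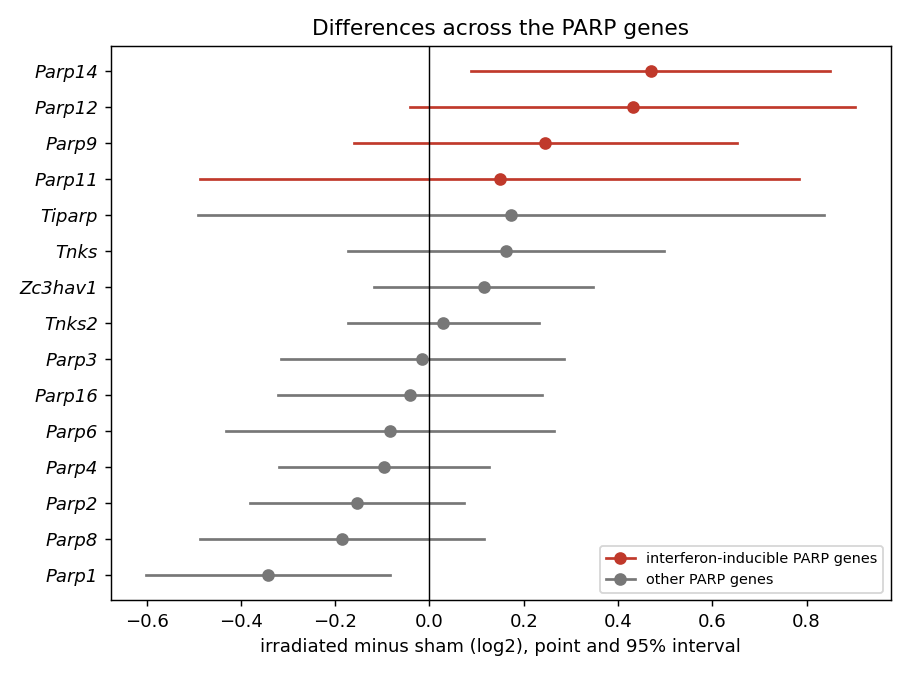
Difference between irradiated and sham mice (log2, x axis; points are limma estimates, lines 95% intervals) for the 4 interferon-inducible PARP genes (top) and the 11 other PARP genes. The interval of Parp14 lies above 0 and that of Parp1 below 0 before adjustment over all genes; neither passed after it.

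Irradiated mice 1 and 2 were also the highest for most type I interferon response genes. Of 29 measured genes 28 were higher in irradiated mice, beside 42.2% of all genes, with a median difference of 0.52. Higher at an unadjusted limma p under 0.05 were 7, beside 2.05% of all genes, and 0 passed the adjusted threshold. Irradiated mice 1 and 2 were the 2 highest in 27 of the 29, beside 3.12% of all genes. The list means were 9.04, 8.70, 7.98 and 7.91 in irradiated mice 1 to 4 and 7.95, 7.85, 7.67 and 8.04 in sham mice 1 to 4. Ifih1, which encodes the RNA sensor MDA5, averaged 9.20 ± 0.55 in irradiated and 8.57 ± 0.08 in sham mice (SD, n = 4 each). Its groups did not overlap, as in 3.68% of all genes, but irradiated mice 3 and 4 lay close to the sham mice. They stood at 8.67 and 8.79, against 8.64 in the highest sham mouse. Mx1, a dynamin-like antiviral GTPase, differed by 1.32 ± 0.42 (SE), more than any of the PARP genes.

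The interferon gamma response genes were less uniform. Of 19 measured, 13 were higher, beside 42.2% of all genes, with a median difference of 0.14. Higher at an unadjusted limma p under 0.05 was 1 (Cxcl10), beside 2.05% of all genes. Irradiated mice 1 and 2 were the 2 highest in 3 of the 19, beside 3.12% of all genes. Cxcl10, a chemokine that type I interferon also induces, averaged 10.85 ± 0.62 in irradiated and 10.19 ± 0.18 in sham mice (SD, n = 4 each). Gbp5, which encodes a guanylate-binding protein, differed by 0.33 ± 0.17 (SE).

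**Figure D5:**
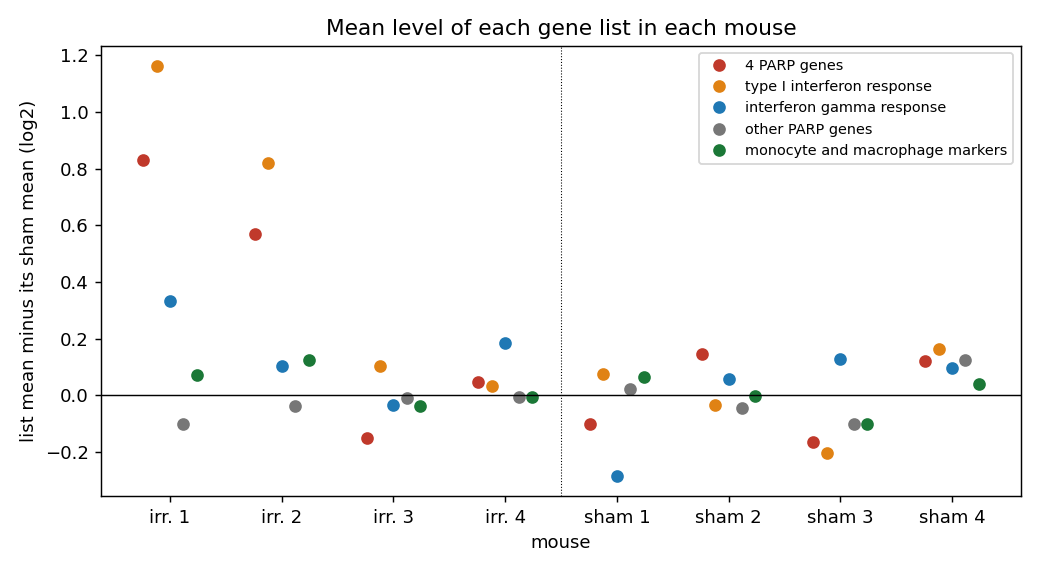
Mean level of each gene list in each mouse minus that list's mean over the 4 sham mice (log2, y axis), for the 4 irradiated and 4 sham mice (x axis); each point is 1 mouse. The 4 PARP genes and the type I interferon response genes are highest in irradiated mice 1 and 2. The list means of the other PARP genes and of the monocyte and macrophage markers stay between -0.10 and 0.13. Single markers such as Ly6c2 varied more.

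Of the signalling chain that induces the family, 15 genes were measured, 8 higher and 7 lower in irradiated mice, with a median difference of 0.02 and 0 past the adjusted threshold. Stat2 averaged 8.71 ± 0.67 in irradiated and 8.26 ± 0.20 in sham mice (SD, n = 4 each), and Irf9, its DNA-binding partner, 7.78 ± 0.40 and 7.79 ± 0.14. Irf7, the factor that amplifies interferon production, stood at 10.38, 9.54, 7.95 and 8.30 in irradiated mice 1 to 4 and 8.21, 8.17, 7.92 and 8.31 in sham mice 1 to 4. Its high values were those of the same mice as for the PARP genes. The receptor genes Ifnar1 and Ifnar2 differed by -0.16 ± 0.11 and -0.01 ± 0.09 (SE), and Ifngr1, which encodes the ligand-binding chain of the interferon gamma receptor, by -0.30 ± 0.12 (limma adjusted p = 0.819).

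Of 9 measured genes that remove or read ADP-ribose, 4 were higher and 5 lower, with a median difference of -0.07. Irradiated mice 1 and 2 were the 2 highest in 0 of them, beside 3.12% of all genes. Adprhl2, which encodes the hydrolase ARH3, differed by 0.23 ± 0.11 (SE) and Oard1, which encodes a macrodomain hydrolase, by -0.26 ± 0.17. The 4 other deltex ligases had a median difference of 0.01, with Dtx3 at 0.16 ± 0.10 and Dtx2 at 0.09 ± 0.11. Of 13 genes of NAD metabolism, which supplies the PARP substrate, 6 were higher and 7 lower, with a median of -0.02. Naprt, an enzyme of NAD synthesis from nicotinic acid, averaged 5.08 ± 0.06 in irradiated and 5.32 ± 0.09 in sham mice (SD, n = 4 each, limma adjusted p = 0.819). It was the 1 gene of the 13 whose groups did not overlap, which was so in 3.68% of all genes. Nmnat2 differed by 0.22 ± 0.12 (SE).

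Genes of STAT6 signalling and alternative activation, the programme with which Parp14 is associated, had a median difference of 0.04, with 6 of 10 higher and 0 past the adjusted threshold. Stat6 itself differed by 0.07 ± 0.10 (SE). Retnla, a secreted protein gene of alternatively activated macrophages, was highest in irradiated mouse 3 at 9.03, against 6.85 in irradiated mouse 1, the reverse of the order of Parp14 in these mice. Socs2 differed by 0.12 ± 0.12.

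Among 19379 named genes outside the family, the one whose profile lay nearest to the mean profile of the 4 PARP genes was Stx16, which encodes a vesicle fusion protein, at a root mean square distance of 0.085 on the log2 scale, where the median gene lay at 0.386. The next were Trim30d, Phf11b, Nod1, Xaf1, Zup1, Dhx58 and Znfx1, at 0.099 to 0.127. Znfx1, which encodes an RNA-binding helicase, was also the nearest to Parp14 (0.060) and to Parp12 (0.121). It stood at 7.61, 7.55, 6.77 and 7.16 in irradiated mice 1 to 4 and 6.81, 6.82, 6.67 and 6.91 in sham mice 1 to 4. Znfx1 was picked for its likeness to these profiles over the same mice, so its high values in irradiated mice 1 and 2 are no separate result. Fbxw17 was second for Parp14 (0.062) and Sp100, a nuclear body protein gene, for Parp12 (0.144). Parp9 was nearest to Stx16 (0.103) and Xdh (0.106), and Parp11 to Trim30d (0.155) and Nod1 (0.164).

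Of the markers of other cells, irradiated mice 1 and 2 were the 2 highest in 0 of 18 T and NK, 0 of 9 B cell, 0 of 14 neutrophil, 0 of 6 dendritic cell and 0 of 7 plasmacytoid dendritic cell markers, and in 0 of 11 monocyte and macrophage markers. In 1 of 13 epithelial, fibroblast and endothelial markers they were. This order was found in 3.12% of all genes, so lists this short cannot be set apart from all genes by it. Between the groups, the neutrophil mean was 6.00, 6.62, 7.15 and 6.06 in irradiated mice 1 to 4 and 6.97, 7.14, 8.43 and 6.75 in sham mice 1 to 4. It averaged 6.46 ± 0.54 in irradiated and 7.32 ± 0.75 in sham mice (SD, n = 4 each), so the groups overlapped but the level was lower in irradiated mice. Lower in irradiated mice were also 7 of 9 B cell (median difference -0.32), 6 of 7 plasmacytoid dendritic cell (-0.29) and 4 of 6 dendritic cell markers (-0.13), while 7 of 11 monocyte and macrophage markers were higher (0.08); 0 of the markers passed the adjusted threshold. The mean of the plasmacytoid dendritic cell markers, from cells known as strong interferon producers, was 4.75, 4.70, 4.53 and 4.78 in irradiated mice 1 to 4 and 4.55, 5.53, 6.13 and 4.70 in sham mice 1 to 4. The T and NK mean was 6.88, 5.63, 5.58 and 6.75 in irradiated mice 1 to 4 and 5.69, 7.75, 7.98 and 6.02 in sham mice 1 to 4. It averaged 6.21 ± 0.70 in irradiated and 6.86 ± 1.17 in sham mice (SD, n = 4 each). With the T and NK mean as a covariate the median difference of the 4 PARP genes was 0.40, against 0.34 without it, and 0.36 with sham mice 2 and 3 left out. The part of the other marker lists in the PARP differences was not tested.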

How the data were processed

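Total RNA (25 ng per sample) was amplified by ribo-SPIA, labelled with biotin and hybridised to Affymetrix arrays, per the labels' protocols. The authors deposited log2 values made with RMA and Partek, per the submitters' processing notes; their settings were not given in the sources used here. No batch or detection call was used. Of 34365 rows, 23521 were annotated to 1 gene symbol, 1814 to several and 9030 to none; the brightest row per symbol gave 22180 genes, and each of the 4 measured PARP genes had a single row. Groups came from the sample titles. Differences are irradiated minus sham, estimated with limma 3.58.1 (R 4.3.3; linear fit with moderated variances, two-sided), and p-values were adjusted by Benjamini-Hochberg across the 22180 genes. The fit was tested on simulated data that had the same spread in both groups, unlike the 4 measured PARP genes. The number of arrays, 4 a group, limits the precision.

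The members, lists and alternatives were chosen with earlier results of these data known, so the order of the mice in interferon genes is not independent support. Named genes were the members, the 2 of each list with the smallest p, Stat2, Irf9 and Irf7, the flanking genes and the nearest profiles; the receptor genes, Zc3hav1, Tiparp and Stat6 were named after their values were seen. Of the cell type marker lists only counts and means are given, apart from the sort's markers. Plots were drawn with matplotlib 3.10.9.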

Additional observations from a re-analysis of the deposited data

Results flagged for a closer look

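In the row annotated to both Dtx3l and Parp9, sham mouse 1 stood apart at 8.38 from the other 3 sham mice at 8.57 to 8.60: its gap to the nearest of them was 0.853 of the group's range, above Dixon's 95% critical value for 4 samples. For the mean of the interferon gamma response genes, sham mouse 1 was again the low one, at 8.08 against 8.42 to 8.49 in the other sham mice, with a gap of 0.8292 of the range, barely past that value. Chance alone marks about 1 in 20 groups, and 44 groups were examined. Parp9 itself was lowest in the same mouse, at 7.38, without passing it.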

How the results depend on the processing

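None of Parp9, Parp11, Parp12 and Parp14 passed the adjusted threshold under any alternative, and the number of genes called over all genes was 0 except without irradiated mouse 1, where it was 1, the histone gene H2ac15 (difference -1.41, limma adjusted p = 0.0453), named here after its value was seen. Quantile normalization, centring on array medians, array weights, the T and NK covariate, dropping dim genes, averaging rows, testing every row and a trended, robust variance left the direction of all 4 differences as reported. The median of the 4 differences ran from 0.33 (array weights) to 0.40 (T and NK covariate) over these and, with 1 array left out, from 0.19 when that was irradiated mouse 1 to 0.48 when it was irradiated mouse 3. The difference of Parp11 ran from -0.12 without irradiated mouse 1, a change of sign, to 0.35 without irradiated mouse 3; without mouse 1 the irradiated group keeps 3 arrays, only 1 of them above the sham range.

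The number of PARP genes at an unadjusted p under 0.05 was 1 as reported. It was 2, Parp12 and Parp14, under quantile normalization, the replicate block, without irradiated mouse 3 and without sham mouse 2. It was 0 without irradiated mouse 1 or 2, without sham mouse 3, with sham mice 2 and 3 both left out, and with a minimum change of 1.5-fold. With the mouse number as a replicate block, which changed no call, the median difference was 0.34 and the number of genes called 0. The deviations of same-numbered mice correlated at -0.28 to -0.144, so the numbers gave no sign of pairing. No detection calls were used, so signal over background was not tested; all 4 genes lay above the median of all rows.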
